A study of Mus musculus with 51 samples.

Results

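This account follows 7 genes of the mouse ventral prostate, Th, Papss2, Aqp5, Sprr1a, Ackr3, Nr2f1 and Isca1, of 12393 genes named on the arrays. They are read by 11 of the 20380 probe sets that carry a single gene symbol. The genes were chosen from these data, because their intensities were lower in mice with an AKT1 transgene than in wild type mice, and because several were higher after the drug RAD001. The differences by genotype and by RAD001 are therefore given as a description, with no test. Not every value follows that description: the differences of Sprr1a came from arrays listed at 0, and the RAD001 differences of Aqp5 were within their SE at 12 h, at 15 d (where 1 RAD001 array is listed at 0) and over 6 d and 9 d.

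Affymetrix arrays measured RNA in ventral prostates of FVB mice aged 8 to 10 weeks on a standard diet. FVB-AKT1 transgenic mice received RAD001 for 12 h (n = 5), 48 h (n = 4), 6 d (n = 3), 9 d (n = 4) or 15 d (n = 6). FVB-AKT1 transgenic mice received placebo for 12 h (n = 4), 48 h (n = 5), 6 d (n = 1), 9 d (n = 1) or 15 d (n = 7). Wild type FVB mice received placebo for 12 h (n = 4), 48 h (n = 4) or 15 d (n = 3), and no wild type array with RAD001 was analysed here. Neither the promoter driving the transgene nor the RAD001 dose is stated in the labels. The labels call the arrays biological replicates and do not say how many animals each stands for. The transgenic placebo arrays are the tested side of the genotype comparison and also the control of the RAD001 comparison, so the differences by genotype and by drug share these arrays.

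AKT1 is a protein kinase that promotes growth and survival, in part through the kinase complex mTORC1. RAD001, or everolimus, inhibits mTORC1. The 7 genes have no common pathway in textbook accounts. Tyrosine hydroxylase, encoded by Th, catalyses the rate-limiting step of catecholamine synthesis and is known from sympathetic neurons and the adrenal medulla. Papss2 makes PAPS, the sulfate donor of sulfotransferases, and Aqp5 is a water channel of secretory epithelia. Sprr1a is a precursor of the cornified envelope of squamous epithelia. Ackr3, also called CXCR7, is a scavenging receptor for the chemokine CXCL12. Nr2f1, or COUP-TFI, is an orphan nuclear receptor. Isca1 assists the late steps of mitochondrial iron-sulfur cluster assembly.

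The sequence upstream of the start sites was searched for 6 short motifs. All 7 genes matched a RefSeq table of promoters (GRCm38.p6), with 9 windows of 250 bases before a start. Of the 6 motifs searched on both strands, none was present in all 7 genes, and no motif was present in more than 2 of them. Each motif was in only 1.55% to 16.1% of all windows. Few matches are thus expected in any 9 windows, and nothing is read from the counts. The cAMP response element TGACGTCA, for which the Th promoter is well known, was in 1.55% of all 32851 windows and in Th alone of the 7. The AP-1 site TGANTCA was in 6.75% of windows, with 2 copies in Sprr1a and 1 in Th. The E-box CACGTG was in 6.02% of windows and, of the 7, in Aqp5. The FOXO site GTAAACA (3.17% of windows) was in a window of Nr2f1, the androgen half-site AGAACA (16.1%) was in Sprr1a, and TATAAA (12.4%) was in Ackr3 and Sprr1a. A window without a match says only that these letters are not in it. Shown here are the bases directly before the start for 3 genes, 5′ to 3′ along the gene, with the named motif in capitals: Th at chr7:142899996-142900095 on the minus strand (cAMP response element), Sprr1a at chr3:92485882-92486041 on the minus strand (AP-1 sites) and Aqp5 at chr15:99590928-99591027 on the plus strand (E-box).
Th: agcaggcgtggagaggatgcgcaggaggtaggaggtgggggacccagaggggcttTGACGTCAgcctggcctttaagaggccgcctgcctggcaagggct
Sprr1a: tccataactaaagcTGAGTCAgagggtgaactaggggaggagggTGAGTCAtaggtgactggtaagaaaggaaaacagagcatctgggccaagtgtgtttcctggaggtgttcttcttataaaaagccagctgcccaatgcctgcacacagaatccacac
Aqp5: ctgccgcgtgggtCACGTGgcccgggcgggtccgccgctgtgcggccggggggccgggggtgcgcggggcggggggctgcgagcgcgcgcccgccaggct

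The values are linear probe set intensities in 2 separately made tables, with 42 arrays at 12 h, 48 h and 15 d and 9 arrays at 6 d and 9 d. Array medians were 91.6 to 109 in the larger table and 98.1 to 110 in the smaller. Both tables list some values at exactly 0. Of 6871 probe sets of the larger table with a median above 200, 1199 (17.5%) were at 0 in at least 1 array, among them a probe set of Actb at 0 in 1 array, so a 0 is reported here only as listed at 0. For fits, intensities under 16 were set to 16, log2 was taken, and the probe set with the highest mean stood for each gene. Each log2 unit is a 2-fold change. All 7 genes (10 of 11 probe sets) passed the filter on low intensity in the larger table, and 6 of 7 (9 of 11) in the smaller, where Th was too low.

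Before any fit, the single arrays give the pattern. At 12 h, 5 of 7 genes (Th, Aqp5, Ackr3, Papss2, Isca1) had every transgenic placebo array below every wild type array, where 15.4% of all 9627 features did. At 48 h these were Th, Aqp5, Nr2f1, Papss2 and Isca1 (14.8% of features), and at 15 d Th, Aqp5 and Papss2 (6.54%). RAD001 arrays all lay above transgenic placebo arrays for Isca1 at 12 h (3.45% of features), for Th, Nr2f1 and Isca1 at 48 h (4.37%), and for none of the 7 at 15 d (0.675%). Since the genes were chosen on these contrasts, nothing is read from the counts.

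**Figure D1:**
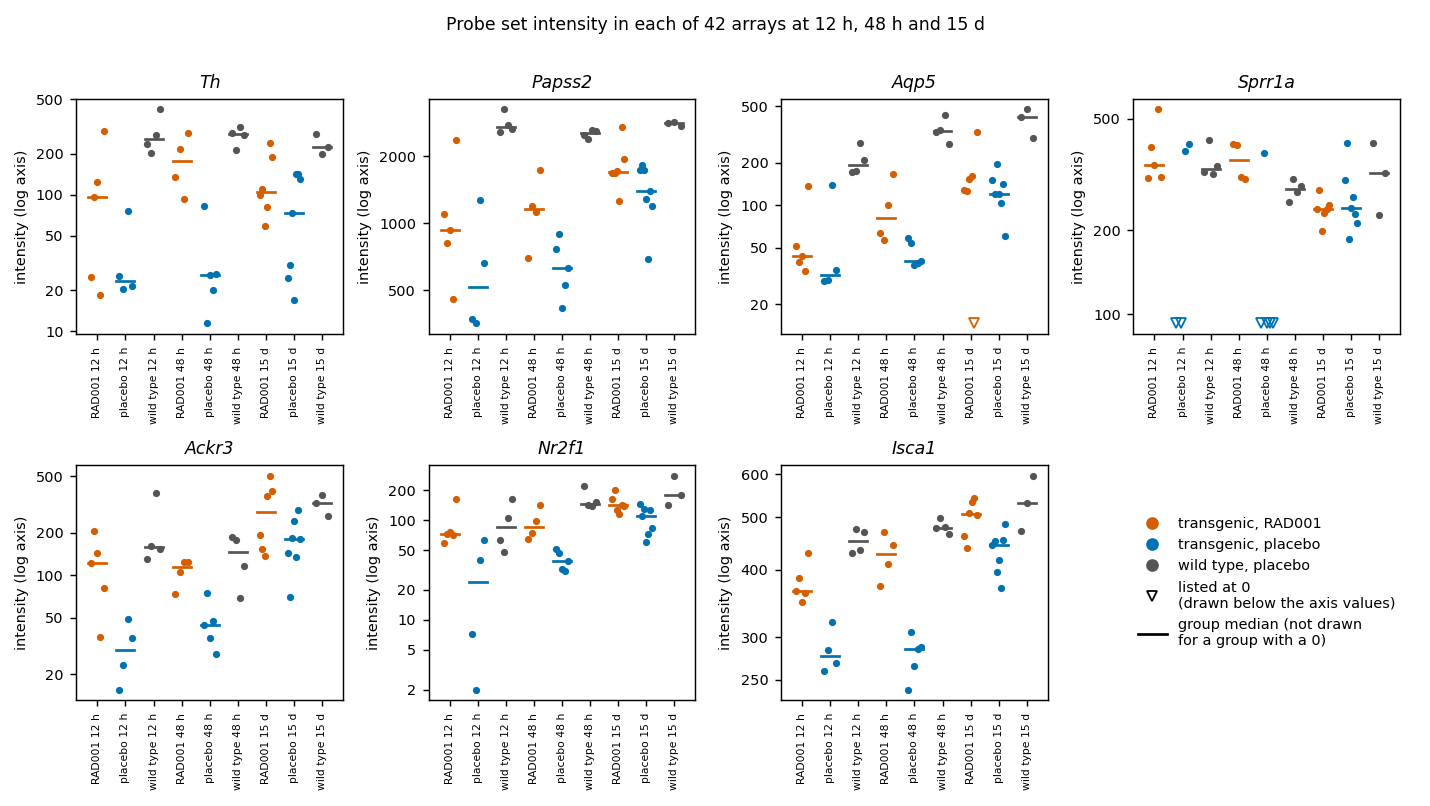
Intensity (log axis) of the 7 genes in 42 arrays, 1 point for each array, with groups ordered by time and, within a time, transgenic with RAD001, transgenic with placebo and wild type with placebo. Bars are group medians and triangles mark arrays listed at 0: 6 transgenic placebo arrays for Sprr1a and 1 RAD001 array for Aqp5.

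Of the enzymes, Th had the widest difference by genotype in the averaged fit, and RAD001 arrays at 48 h stood well above placebo. At 48 h Th had intensities of 134, 217, 93.5 and 285 in RAD001 arrays, against 82.7, 11.4, 25.8, 20.1 and 26.4 in transgenic placebo arrays and 284, 212, 315 and 273 in wild type arrays. Every RAD001 array was above every transgenic placebo array, and 2 of 4 reached the lowest wild type array. The 12 h intensities were 25.1, 97.1, 123, 18.5 and 293 in RAD001 arrays, against 25.2, 20.3, 75.8 and 21.5 in transgenic placebo arrays and 235, 202, 275 and 422 in wild type arrays. Here RAD001 and transgenic placebo overlapped: 2 RAD001 arrays were as low as placebo and 1 was as high as wild type. At 15 d it ranged from 58.9 to 239 (median 105) in RAD001 arrays, from 16.8 to 142 (median 73.2) in transgenic placebo arrays and from 199 to 279 in wild type arrays. The transgenic placebo arrays of 15 d were themselves uneven, with replicates 8, 9 and 10 at 142, 142 and 129 and replicates 1, 2 and 6 at 24.5, 30.4 and 16.8. Replicates 8 and 9 were the 2 arrays of the larger table with more than 500 values at 0 (835 and 1092). Replicates 6, 8, 9 and 10 belong to the second set of 15 d arrays described below.

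The fitted difference of Th between transgenic and wild type, averaged over 12 h, 48 h and 15 d, was -2.80 ± 0.38 on the log2 scale (SE), or 6.96 times lower. By time it was -3.17, -3.24 and -1.98. With RAD001 the difference was 1.20 ± 0.64 at 12 h, 2.56 ± 0.64 at 48 h and 0.98 ± 0.53 at 15 d. The 12 h value was 0.68 without RAD001 replicate 5, and because several placebo intensities lie near the floor, a floor of 64 gave 1.31 at 48 h.

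Few other genes of catecholamine synthesis, transport and breakdown passed the test. Of 9 of 15 such genes that were high enough to test, 2 fell with the transgene and none rose, at a median change of -0.13 against -0.05 over all features, of which 33.5% were called. Slc18a1, a vesicular monoamine transporter, fell by 0.55 ± 0.09 (limma, Benjamini-Hochberg adjusted p = 1.46e-05), a call kept when any of the 27 arrays was left out and lost from 15 d alone. Spr, sepiapterin reductase, which makes the cofactor that tyrosine hydroxylase needs, fell by 0.32 ± 0.10 (adjusted p = 0.0137), a call lost without wild type 15 d replicate 2 (adjusted p = 0.0506), from 15 d alone (0.371), and without the second set of 15 d arrays (0.195) or with that set as a term (0.0761). None of the 9 was called with RAD001 at 12 h, 48 h or 15 d, where 1.48%, 3.54% and 5.78% of all features were.

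In the probe set used for its fit, Papss2 separated the genotypes at every time and stayed below wild type in every RAD001 array. The 12 h intensities were 1097, 818, 938, 458 and 2350 in RAD001 arrays, against 372, 356, 1274 and 663 in transgenic placebo arrays and 2566, 3237, 2755 and 2652 in wild type arrays. At 48 h the values were 702, 1197, 1127 and 1726 in RAD001 arrays, 765, 896, 416, 531 and 632 in transgenic placebo arrays and 2489, 2382, 2626 and 2602 in wild type arrays. At 15 d it ranged from 1254 to 2707 (median 1699) in RAD001 arrays, from 688 to 1821 (median 1396) in transgenic placebo arrays and from 2742 to 2845 in wild type arrays. No array of either transgenic group reached the lowest wild type array at its time, and at each time the RAD001 and placebo arrays overlapped. Wild type arrays were closely grouped, with an SD of 0.03 to 0.15 log2 units, while the SD of the transgenic groups was 0.36 to 0.86.

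The averaged genotype difference of Papss2 was -1.78 ± 0.20, or 3.43 times lower, with -2.27, -2.01 and -1.06 at 12 h, 48 h and 15 d. RAD001 minus placebo was 0.76 ± 0.34 at 12 h, 0.85 ± 0.34 at 48 h and 0.40 ± 0.28 at 15 d. The 12 h value was 0.45 without RAD001 replicate 5 and the 15 d value 0.24 without placebo replicate 8. A separate probe set gave a genotype difference of -1.71 ± 0.20 and RAD001 differences of 0.35, 0.22 and 0.25 at the same times. In it, RAD001 arrays of 12 h read up to 910, above the lowest wild type array of 12 h at 820. Another probe set was listed at 0 in 3 wild type arrays and 1 RAD001 array of 15 d and otherwise read 832 to 1482 in wild type arrays. Its RAD001 arrays of 12 h read up to 1163, within that range. The remaining probe set was too dim to pass the filter.

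Of 15 testable sulfation genes of 27, 6 fell and 2 rose with the transgene, where 33.5% of all features were called, and their median change was -0.24 against -0.05 over all features. Papss1, the paralogue that also makes PAPS, fell by 0.35 ± 0.07 (limma adjusted p = 0.000156). Tpst1, which sulfates tyrosines of secreted and membrane proteins, fell by 0.53 ± 0.08 (adjusted p = 1.32e-06), and Sult5a1, a sulfotransferase, fell by 0.44 ± 0.08 (adjusted p = 5.09e-05). Bpnt1, which hydrolyses the spent donor, rose by 0.34 ± 0.07 (adjusted p = 0.000166), as did Chst3, a chondroitin sulfotransferase named after its values were seen, by 0.56 ± 0.12 (adjusted p = 0.000452). These 5 calls held when any of the 27 arrays was left out, and those of Papss1, Bpnt1 and Chst3 were lost from 15 d alone. With RAD001 none of the 15 was called at 12 h, 48 h or 15 d, and Papss1 changed by 0.31 ± 0.12 at 48 h (adjusted p = 0.15).

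Aqp5 was lower in transgenic prostates at each time, with a RAD001 difference above its SE only at 48 h. At 48 h it had 63.4, 56.6, 100 and 166 in RAD001 arrays, against 59.1, 54.3, 38.0, 39.1 and 40.7 in transgenic placebo arrays and 329, 341, 432 and 272 in wild type arrays. The RAD001 and placebo arrays overlapped by a narrow margin and both lay below all wild type arrays. At 12 h it had 51.9, 39.7, 43.6, 34.2 and 136 in RAD001 arrays, 29.3, 29.8, 139 and 34.9 in transgenic placebo arrays, and 171, 174, 275 and 210 in wild type arrays. A single array in each transgenic group, RAD001 replicate 5 and placebo replicate 3, was high, and both stayed below wild type.

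At 15 d 5 RAD001 arrays of Aqp5 lay between 125 and 328 and replicate 6 was listed at 0, against 60.3 to 195 (median 120) in transgenic placebo arrays and 299, 418 and 476 in wild type arrays. The genotype difference averaged -2.25 ± 0.31, or 4.76 times lower, with -2.16, -2.90 and -1.69 by time. With RAD001 the difference was 0.22 ± 0.52 at 12 h and 0.95 ± 0.52 at 48 h. At 15 d it was -0.10 ± 0.43, and 0.47 with the 0 treated as missing. The 12 h value ran from -0.12 without RAD001 replicate 5 to 0.76 without placebo replicate 3, and the 48 h value was 0.51 with a floor of 64. Of 5 testable aquaporins of 10, Aqp1, a water channel of vessels and many epithelia, fell by 0.37 ± 0.13 with the transgene (limma adjusted p = 0.0210), a call lost without wild type 15 d replicate 2 (adjusted p = 0.0543). Mip, the lens water channel, fell by 0.99 ± 0.36 (adjusted p = 0.0290), a call lost without transgenic placebo 48 h replicate 2 or wild type 15 d replicate 1 (highest adjusted p = 0.0555), and none was called with RAD001 at 12 h, 48 h or 15 d.

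Sprr1a was the exception among the 7, because its differences came from arrays listed at 0. It was listed at 0 in 6 of 42 arrays, all of them transgenic placebo: 2 of 4 at 12 h and 4 of 5 at 48 h. In the other 36 arrays it read 185 to 541, with a median of 306. At 48 h it had 405, 402, 309 and 306 in RAD001 arrays, against 0, 377, 0, 0 and 0 in transgenic placebo arrays and 253, 304, 275 and 289 in wild type arrays. At 12 h it had 307, 398, 342, 541 and 310 in RAD001 arrays, against 0, 0, 384 and 408 in transgenic placebo arrays and 322, 419, 318 and 340 in wild type arrays. The 3 transgenic placebo arrays of 12 h and 48 h that gave a value were within or above the wild type range of their time. At 15 d no array was at 0, and Sprr1a ranged from 198 to 278 in RAD001 arrays, from 185 to 411 in transgenic placebo arrays and from 227 to 410 in wild type arrays, so that all 3 groups overlapped.

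With zeros set to the floor, the fit of Sprr1a gave -1.88 ± 0.42 for genotype, 2.22 ± 0.71 for RAD001 at 12 h and 3.55 ± 0.71 at 48 h. These values depend on the floor. With zeros treated as missing, genotype was 0.11 ± 0.14, RAD001 at 12 h -0.09 ± 0.22 and RAD001 at 48 h -0.10 ± 0.30. At 15 d alone, genotype was -0.28 and RAD001 -0.10. Of the 6871 probe sets with a median above 200, 33 had at least 6 zeros. Of 9 testable cornified envelope genes of 29, Evpl, which encodes envoplakin, rose by 0.69 ± 0.10 with the transgene (limma adjusted p = 9.85e-07) and Anxa1 by 0.30 ± 0.11 (adjusted p = 0.0307), while Ppl and Tgm3 fell by 0.24 and 0.23. The call of Anxa1 was lost in 3 of the 27 fits that left out an array (highest adjusted p = 0.0833), and that of Tgm3 in 2 (0.0585). With RAD001 the sole call among the 9 over 12 h, 48 h and 15 d was Evpl at 15 d, which rose by 0.48 ± 0.14 (adjusted p = 0.0300), a call lost in 6 of 13 fits that left out an array (highest adjusted p = 0.0714) and under 4 of 12 other alternatives (highest 0.109).

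**Figure D2:**
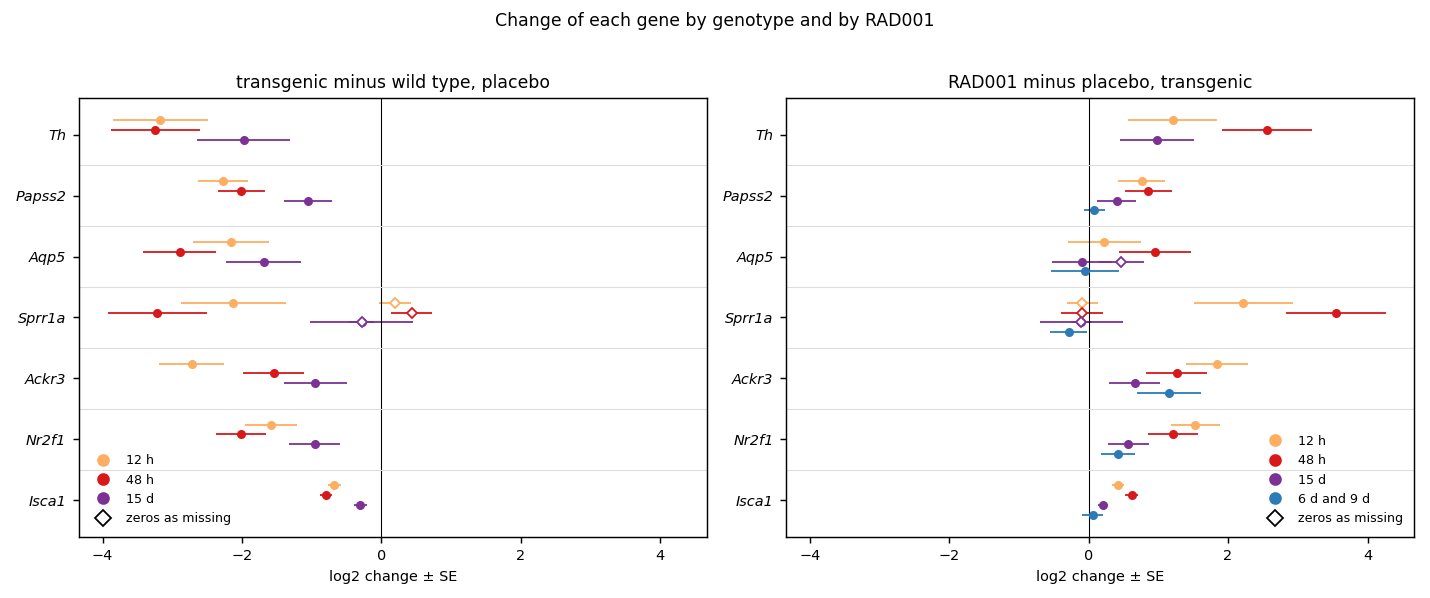
Log2 change with its SE (bars) for each gene, at left transgenic minus wild type under placebo and at right RAD001 minus placebo in transgenic mice, coloured by time. Open diamonds treat zeros as missing: for Sprr1a they lie between -0.28 and 0.43, far from the filled 12 h and 48 h points, whose fall and rise come from arrays listed at 0.

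The receptor Ackr3 had RAD001 differences above their SE at 12 h, 48 h, 15 d and over 6 d and 9 d, as did Nr2f1. At 12 h it had 122, 205, 144, 36.7 and 81.8 in RAD001 arrays, against 15.5, 23.0, 48.8 and 35.9 in transgenic placebo arrays and 131, 162, 379 and 153 in wild type arrays. Only RAD001 replicate 4 fell within the placebo range, and 2 of 5 RAD001 arrays reached the wild type range. At 48 h it had 73.8, 106, 123 and 124 in RAD001 arrays, against 44.4, 74.6, 36.0, 47.8 and 27.8 in transgenic placebo arrays and 187, 177, 69.3 and 116 in wild type arrays. All 4 RAD001 arrays were at or above the lowest wild type array, and the lowest of them overlapped the highest placebo array. At 15 d it ranged from 137 to 506 (median 278) in RAD001 arrays, from 70.6 to 287 (median 179) in transgenic placebo arrays and from 262 to 367 in wild type arrays.

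Both transgenic groups of Ackr3 were higher at 15 d than at 12 h and 48 h, and the genotype difference was -2.72, -1.55 and -0.95 at 12 h, 48 h and 15 d (averaged -1.74 ± 0.26, or 3.34 times lower). RAD001 minus placebo was 1.84 ± 0.44 at 12 h, 1.26 ± 0.44 at 48 h and 0.66 ± 0.37 at 15 d. A floor of 64 gave 0.83 at 12 h and 0.66 at 48 h. Of 6 testable genes of the CXCL12 axis of 14, Cxcl12, the ligand itself, fell by 0.38 ± 0.08 with the transgene (limma adjusted p = 0.000175) and rose by 0.49 ± 0.11 with RAD001 at 15 d (adjusted p = 0.00370). Of its 2 probe sets only this 1 was called in these comparisons, and the other gave -0.29 and 0.19. At 15 d Cxcl12 ranged from 146 to 211 (median 179) in RAD001 arrays, 104 to 153 (median 129) in transgenic placebo arrays and 133 to 171 in wild type arrays. Its call at 15 d was kept when any of the 13 arrays was left out, and was lost without the second set of 15 d arrays described below (0.58, adjusted p = 0.206). Ackr1 and Ackr4, atypical chemokine receptors of the same family, changed by 0.22 ± 0.08 (adjusted p = 0.0247) and -0.45 ± 0.18 (adjusted p = 0.0482) with the transgene. The call of Ackr4 was lost in 16 of the 27 fits that left out an array (highest adjusted p = 0.111), and that of Ackr1 in 3 (0.0797).

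The nuclear receptor Nr2f1 showed an early difference with RAD001. At 12 h it had 59.1, 72.3, 75.6, 70.9 and 163 in RAD001 arrays, against 7.26, 1.99, 40.2 and 63.7 in transgenic placebo arrays and 63.9, 48.5, 105 and 163 in wild type arrays. All 5 RAD001 arrays were at or above the lowest wild type array, and placebo replicate 4 overlapped both groups. At 48 h it had 64.5, 75.1, 97.7 and 143 in RAD001 arrays, against 51.9, 46.4, 32.3, 30.7 and 39.4 in transgenic placebo arrays and 218, 144, 137 and 150 in wild type arrays. The transgenic groups did not overlap at 48 h, and 1 RAD001 array reached the wild type range. At 15 d it ranged from 116 to 203 (median 142) in RAD001 arrays, from 60.1 to 146 (median 109) in transgenic placebo arrays and from 141 to 280 in wild type arrays.

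The genotype difference of Nr2f1 averaged -1.52 ± 0.21, or 2.87 times lower, with -1.59, -2.02 and -0.96 by time. RAD001 minus placebo was 1.53 ± 0.36 at 12 h, 1.21 ± 0.36 at 48 h and 0.57 ± 0.30 at 15 d. With a floor of 64 the first 2 were 0.38 and 0.50, since placebo intensities were low. Among 15 testable genes of 23 for COUP-TF factors, retinoid receptors and retinoid enzymes, 4 fell and 1 rose with the transgene, a share near the 33.5% of all features. Aldh1a1 and Aldh1a3, which make retinoic acid, fell by 1.26 ± 0.16 and 1.14 ± 0.15 (limma adjusted p = 1.76e-07 and 2.00e-07). Nrip1, a corepressor of nuclear receptors, fell by 0.96 ± 0.16 (adjusted p = 1.78e-05), and Rarb, a retinoic acid receptor named after its values were seen, fell by 0.57 ± 0.11 (adjusted p = 7.82e-05). Nr2f6, of the same subfamily as Nr2f1, rose by 0.30 ± 0.06 (adjusted p = 6.83e-05), and its change at 15 d alone was -0.02.

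With RAD001, Aldh1a3 rose by 0.93 ± 0.25 at 48 h (limma adjusted p = 0.0312), the sole call in this list over 12 h, 48 h and 15 d. The call was lost without transgenic placebo replicate 1 or 5 or RAD001 replicate 1, 2 or 5 (highest adjusted p = 0.0943), with only the compared groups fitted (0.205) and with a floor of 64 (0.577).

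Isca1 had the smallest fitted genotype difference of the 7 with zeros at the floor (with zeros as missing, that of Sprr1a was smaller), and the least scatter within groups. At 12 h it had 365, 386, 349, 362 and 430 in RAD001 arrays, against 260, 284, 320 and 269 in transgenic placebo arrays and 429, 475, 435 and 469 in wild type arrays. At 48 h it had 374, 469, 410 and 445 in RAD001 arrays, against 240, 307, 265, 285 and 287 in transgenic placebo arrays and 477, 497, 480 and 465 in wild type arrays. The RAD001 arrays stood apart from placebo at both times, and 1 RAD001 array at each time reached the wild type range. At 15 d it ranged from 439 to 542 (median 508) in RAD001 arrays, from 370 to 487 (median 444) in transgenic placebo arrays and from 471 to 597 in wild type arrays, with overlap of all groups.

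The genotype difference of Isca1 averaged -0.59 ± 0.05, or 1.51 times lower, with -0.68, -0.80 and -0.31 by time. RAD001 minus placebo was 0.42 ± 0.09 at 12 h, 0.62 ± 0.09 at 48 h and 0.21 ± 0.07 at 15 d. A further Isca1 probe set gave -0.54 ± 0.14 for genotype but 0.24 ± 0.24, -0.04 ± 0.24 and 0.33 ± 0.20 for RAD001, so the RAD001 difference at 48 h was not seen by both probe sets. Of 13 testable iron-sulfur assembly genes of 23, 2 rose and 3 fell with the transgene, a share near the 33.5% of all features. Hscb, a cochaperone of cluster transfer, fell by 0.71 ± 0.17 (limma adjusted p = 0.00104), and Iscu, the assembly scaffold, fell by 0.33 ± 0.08 (adjusted p = 0.00158) and rose by 0.43 ± 0.11 with RAD001 at 15 d (adjusted p = 0.0156). The RAD001 call of Iscu was lost without RAD001 replicate 6 (adjusted p = 0.0685), with only the compared groups fitted (0.0822) and without the second set of 15 d arrays (0.22, adjusted p = 0.955). Nubp2, of the cytosolic assembly machinery, rose by 0.32 ± 0.07 with the transgene (adjusted p = 0.000795). The other 2 calls, Ciapin1 (-0.21, adjusted p = 0.0426) and Isca2 (0.17, adjusted p = 0.0489, named after its values were seen), were lost in 15 and 14 of 27 fits that left out an array. Ciapin1 has no settled direction, since its 2 probe sets were both called, at -0.21 and 0.31. At 12 h Nubp1, a partner of Nubp2, fell by 0.56 ± 0.13 with RAD001 (adjusted p = 0.0219), a call lost in 4 of 9 such fits, and its 3 probe sets ranged from -0.56 to 0.13.

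Set against wild type rather than against placebo, the RAD001 groups differed from gene to gene in how far they stood below. For Nr2f1 the RAD001 mean was -0.06, -0.81 and -0.39 log2 units from wild type at 12 h, 48 h and 15 d, and for Ackr3 it was -0.88, -0.29 and -0.29. For Isca1 it was -0.26, -0.18 and -0.09, and for Th -1.97, -0.68 and -1.0. For Papss2 it was -1.51, -1.16 and -0.65, and for Aqp5 -1.94, -1.95 and -1.79. In the fitted probe sets of Aqp5 and Papss2, all RAD001 arrays lay below all wild type arrays at 12 h and 48 h. Of all features, 9.97% and 11.3% did so. At 15 d this held for Papss2 (4.84% of features). At 48 h Sprr1a alone of the 7 had every RAD001 array above wild type (11.4% of features).

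Across all 9 groups of the larger table, transgenic placebo at 12 h or 48 h held the lowest mean for each of the 7 genes. The highest mean was a wild type group for every gene but Sprr1a. Neighbours in that order were mostly within their spread: of 8 gaps, the gap exceeded the larger SD of the pair in 3 for Isca1, 2 each for Aqp5 and Nr2f1, 1 each for Ackr3 and Papss2, and 0 for Th and Sprr1a. For Papss2 the gap lay between RAD001 at 15 d and the wild type groups. For Ackr3 and Nr2f1 a gap separated transgenic placebo at 12 h and 48 h from all other groups.

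At 6 d and 9 d, in the smaller table, placebo was a single array at each time and no wild type array was available, so the placebo spread is taken from the RAD001 arrays. Ackr3 had 168, 304 and 141 in RAD001 arrays at 6 d against 99.0 in placebo, and 373, 630, 170 and 308 at 9 d against 130 in placebo. All 7 RAD001 arrays lay above both placebo arrays, and the fitted difference over both times was 1.16 ± 0.46. Nr2f1 had 166, 183 and 133 at 6 d against 107, and 168, 312, 186 and 204 at 9 d against 176, with a difference of 0.42 ± 0.25. The differences of Papss2 (0.08 ± 0.15), Isca1 (0.06 ± 0.15) and Aqp5 (-0.05 ± 0.48) were within their SE, and that of Sprr1a was -0.29 ± 0.27. The probe sets of Papss2 disagreed here, since the 2 others that passed the filter gave -0.34 ± 0.16 and -0.41 ± 0.19.

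Th, too low for the fit there, had 43.8, 13.5 and 39.2 in RAD001 arrays at 6 d against 24 in placebo, and 32.6, 82.0, 88.0 and 31.9 at 9 d against 8.37. Papss2 had 1458, 1647 and 1626 at 6 d against 1732, and 1913, 2392, 1660 and 1628 at 9 d against 1525. The placebo array thus lay above the RAD001 arrays at 6 d and below them at 9 d, and the difference was -0.14 and 0.30 at these times. Isca1 had 425, 495 and 435 at 6 d against 409, and 635, 478, 460 and 457 at 9 d against 511. Aqp5 had 164, 83.5 and 57.0 at 6 d against 85.2, and 109, 166, 61.6 and 59.4 at 9 d against 104. For Aqp5 at both times, and for Isca1 at 9 d, the placebo array lay within the range of the RAD001 arrays. Sprr1a, with no array at 0 in this table, had 174, 201 and 312 at 6 d against 308, and 232, 166, 285 and 191 at 9 d against 229.6. In the same fit 83 of 9345 features were called (0.888%), among them Krt4, a keratin of stratified epithelia on the cornified envelope list, which rose by 1.51 ± 0.24 (limma adjusted p = 0.0320, and up to 0.0687 when an array was left out). The call of Krt4 was also lost from 6 d alone (adjusted p = 0.432), from 9 d alone (0.137), with the replicate block (0.418) and with no filter (0.0861).

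**Figure D3:**
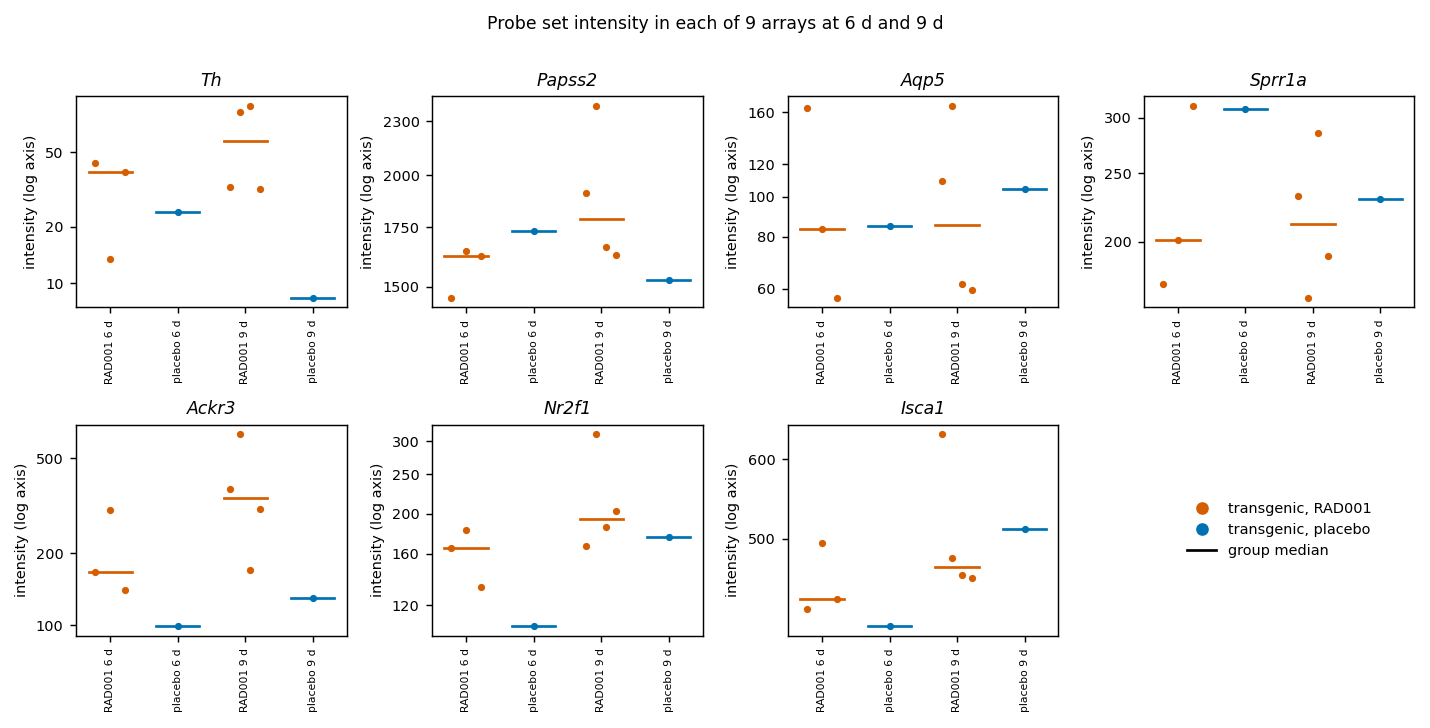
Intensity (log axis) of the 7 genes in the 9 arrays at 6 d and 9 d, 1 point for each array, with transgenic RAD001 left of transgenic placebo at each time. For Ackr3 all RAD001 points, 141 to 630, lie above the placebo points at 99.0 and 130.

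Comparisons that the choice of genes did not use are those over time within a treatment. In wild type mice at 48 h minus 12 h, 0 of 7 genes were called by limma (17.1% of all features were), and at 15 d minus 48 h 0 of 7 (1.82%). The wild type arrays of 12 h and 48 h also lay apart on the first principal component described below (-25.2 to -15.1 against -3.49 to 2.06). Whether time or something else separates them cannot be told from the labels. Nr2f1 came nearest in the first, at 0.90 ± 0.37 (adjusted p = 0.0927), and was called with a floor of 64 (adjusted p = 0.0429) or without wild type 12 h replicate 4 (adjusted p = 0.0320). Aqp5 differed by 0.74 ± 0.55 (adjusted p = 0.375) and was called when only the compared groups were fitted (adjusted p = 0.0221). At 15 d minus 48 h, Ackr3 differed by 1.30 ± 0.50 (adjusted p = 0.189). The intensity of Ackr3 was 262 to 367 at 15 d against 69.3 to 187 at 48 h, without overlap.

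Th in wild type differed by -0.02 ± 0.68 and -0.21 ± 0.73 over these intervals, and Papss2 by -0.15 ± 0.36 and 0.15 ± 0.38. Under RAD001 at 9 d minus 6 d, 0 of 6 testable genes were called, and 0.0% of 9345 features, with 320 features at an unadjusted p under 0.05. Ackr3 differed most there, by 0.79 ± 0.44 (adjusted p = 0.891). A miss of the threshold with 3 to 4 arrays a group does not show that levels were alike.

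Of the 7 genes, 6 varied more within groups than most features, and Isca1 varied less than most. The SD within groups stood at the 97.1 percentile of all features for Th, 93.7 for Aqp5, 90.1 for Ackr3, 84.6 for Nr2f1, 83.7 for Papss2 and 3.33 for Isca1. Sprr1a stood at 98.3, with its zeros at the floor. The percentile of Aqp5, and its correlations given below, include its array listed at 0, also set to the floor. In single arrays several genes deviated the same way. Transgenic placebo 12 h replicate 3, RAD001 12 h replicate 5 and RAD001 48 h replicate 5 were each the highest of their group for 5 of the 6 genes other than Sprr1a. RAD001 12 h replicate 4, RAD001 48 h replicate 1, transgenic placebo 12 h replicate 1 and wild type 12 h replicate 1 were each the lowest for 4 of the 6. Over 42 arrays, deviations from group means correlated above 0 for 15 of 15 pairs of these 6 genes, from 0.05 to 0.58 with a median of 0.30, the highest being Nr2f1 with Papss2. These points share arrays and RNA preparations, and no test is given. The share of pairs above 0 among all features is not given either, nor is how often a single array is the extreme of its group. The arrays named above were picked as the most extreme. Nothing particular to these genes is therefore read from either count.

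**Figure D4:**
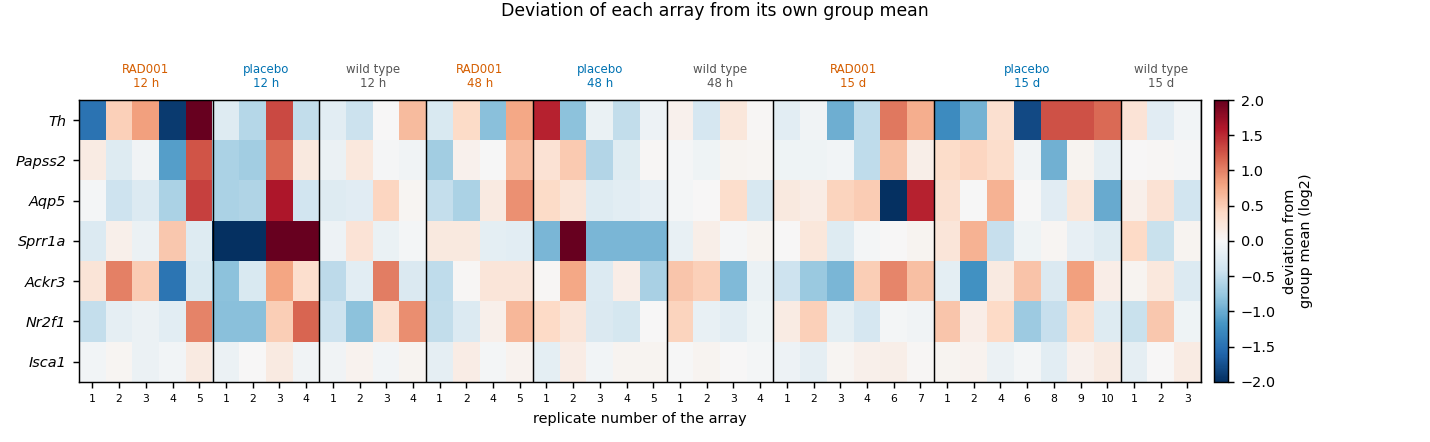
Deviation of each array from its own group mean (log2 units, colour) for the 7 genes (rows) in 42 arrays (columns, replicate number below, group above; red is above the group mean). Columns of one colour are arrays in which several genes deviate together, such as RAD001 12 h replicates 4 and 5 and placebo 12 h replicate 3.

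The genes with the most similar pattern over the 42 arrays were named by Pearson correlation of log2 intensity, which groups as well as single arrays shape. For Papss2 these were Aldh1a1 (r = 0.93), Irs1 (0.91), the insulin receptor substrate, and Aldh1a7 (0.90), and within groups the deviations of Papss2 and Aldh1a1 correlated at 0.82. For Ackr3 they were Mme (0.90), a cell surface peptidase, Ddx50 (0.89) and Wif1 (0.89), a secreted Wnt inhibitor. For Nr2f1 they were Ogn (0.86), a matrix proteoglycan, Ccdc28a (0.84) and Tada2a (0.83). For Isca1 they were Zfp36l2 (0.89), Ccdc6 (0.87) and Bclaf1 (0.87).

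For Aqp5 the most similar were 2310039H08Rik (0.81), Aldh1a1 (0.80) and Zranb2 (0.79), and for Th the matrix proteins Fmod (0.78) and Prelp (0.77) and the tropomyosin Tpm2 (0.77). For Sprr1a the highest was Man1a at 0.69. Aldh1a1 at 12 h ranged from 388 to 1183 (median 646) in RAD001 arrays, from 279 to 1101 (median 461) in transgenic placebo arrays and from 1350 to 1716 (median 1636) in wild type arrays. Fmod at 48 h ranged from 251 to 428 in RAD001 arrays, 124 to 243 in transgenic placebo arrays and 408 to 609 in wild type arrays.

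**Figure D5:**
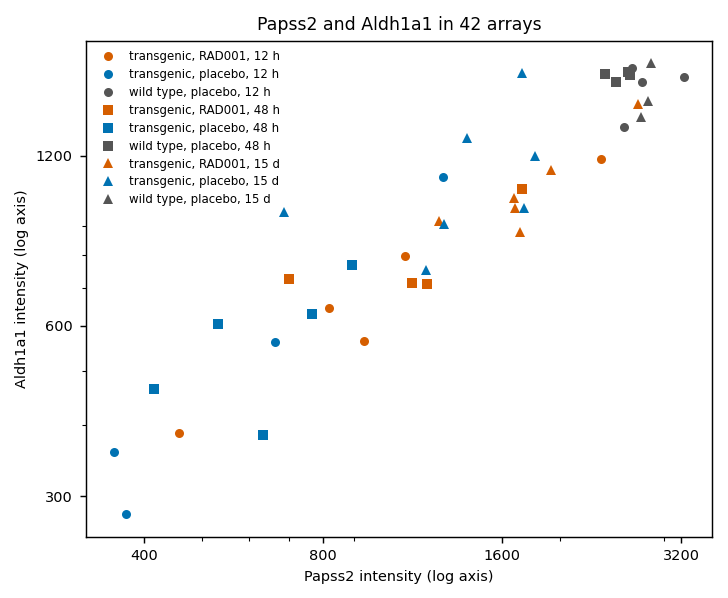
Intensity of Aldh1a1 against that of Papss2 (both log axes) in 42 arrays, coloured by group and shaped by time. The points lie along a common line (r = 0.93 on the log2 scale), with wild type arrays at the top right and transgenic placebo arrays of 12 h and 48 h toward the bottom left.

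Some lists of cell type markers differed between the same groups and others did not. Smooth muscle markers fell with the transgene in 9 of 11 tested (of 13), with a median of -0.93, and their summed intensity was 5786 to 9469 in transgenic placebo arrays against 11068 to 16697 in wild type arrays. In RAD001 arrays the sum was 8567 to 13871, with 1, 2 and 4 of 11 markers higher than placebo at 12 h, 48 h and 15 d (1.48%, 3.54% and 5.78% of all features were called in either direction). At the same times basal markers were higher in 0, 2 and 2 of 6 and fibroblast markers in 0, 1 and 2 of 8. Of 11 luminal markers, 1 was lower at each time. Fibroblast markers fell with the transgene in 5 of 8 and basal markers in 4 of 6, while luminal markers rose in 6 of 11. Of all 9627 features, 33.5% were called in either direction: 1853 fell and 1369 rose. Of 6 macrophage markers and 1 adipocyte marker tested, 0 were called by limma for genotype, and of 4 ventral prostate secretory genes 1 rose and 1 fell. Of 2 endothelial markers tested 1 rose with the transgene, and of 3 Schwann cell markers 1 rose and 1 fell. With RAD001 at 15 d, 1 of 6 macrophage markers was higher. At that time 1 of 3 Schwann cell markers and 1 of 4 ventral prostate secretory genes were lower. Deviations from group means were also set against the mean log2 deviation of the markers of each list that passed the filter. Those of Aqp5 followed the smooth muscle mean at r = 0.73, those of Nr2f1 at 0.45 and those of Th at 0.07. The value of Aqp5 includes its array listed at 0, set to the floor (deviation -2.82), and was not computed without it. The deviations of Th ran against the luminal mean at -0.54 and those of Ackr3 at -0.41. Ackr3 followed the mean of ventral prostate secretory genes at 0.60 and Papss2 at 0.55.

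The part of these markers in the differences of the 7 genes was not tested. In bulk tissue, fewer cells of a type and less RNA per cell cannot be told apart. Of 10 neuronal and neuroendocrine genes, the cell types for which Th is best known, 4 were high enough to test. Of these 1 fell with the transgene and none was called with RAD001 at 12 h, 48 h or 15 d, and the sum of the 9 on the array was 519 to 720 in transgenic placebo arrays against 543 to 756 in wild type arrays. Ventral prostate secretory genes summed to 15517 to 25871 over all arrays and genes of the seminal vesicle and other lobes to 85.8 to 197.

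At 15 d the arrays fell into separate sets along the first principal component of all features (26.1% of variance), a division seen in the data and not given by the labels. The first set held the 3 wild type arrays with transgenic placebo replicates 1 and 2 and RAD001 replicates 1 and 2, and the second held 5 transgenic placebo and 4 RAD001 arrays and no wild type. RAD001 minus placebo was 1.94 in the first set and 0.61 in the second for Th, 0.78 and 0.67 for Ackr3, and 0.54 and 0.55 for Nr2f1. It was -0.08 and 0.61 for Papss2 and 0.01 and 0.31 for Isca1, so for these the 15 d difference came from the second set. Within the first set, transgenic placebo minus wild type was -3.09 for Th, -1.65 for Ackr3, -1.53 for Aqp5, -0.65 for Papss2, -0.61 for Nr2f1 and -0.25 for Isca1, and 0.18 for Sprr1a. At 48 h wild type arrays lay at -3.49 to 2.06 on this component and transgenic arrays of both treatments at -23.7 to -6.39. Wild type arrays of 12 h lay at -25.2 to -15.1.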

How the data were processed

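Values are linear probe set intensities that the authors deposited in 2 tables (42 and 9 arrays); the software and scaling behind them are not given in the sources used here. Of 22626 probe sets, 20380 had 1 gene symbol in GEO's platform annotation, 691 several and 1555 none. The deposited intensities were put on the log2 scale after a floor of 16. Features with a mean at or above the 40th percentile were kept, with 1 probe set per gene (the highest mean), leaving 9627 and 9345. Groups were fitted together per table with limma 3.58.1 (lmFit, eBayes with trend; R 4.3.3), with Benjamini-Hochberg adjustment over all features and a threshold of 0.05. The tables were tested apart. Tests were two-sided. The number of arrays limits the precision, and no 2 arrays were identical.

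The 7 genes and all lists were chosen with earlier results of these data known. Genes named are the 7, up to 4 called genes with the smallest p per list and comparison, and the 3 features most correlated with each of the 7; others are marked. The fit was tested on simulated data. Alternatives covered the floor, filter, probe set choice, replicate block, fitted groups, zeros, array sets and leaving out each array.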

Additional observations from a re-analysis of the deposited data

Results flagged for a closer look

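Of 99 groups of 4 or more arrays examined (7 genes, 11 probe sets), 11 held an array far from the others. Chance gives about 1 in 20 for independent groups of normal values. Here the groups share arrays, and some hold values listed at 0 and set to the floor, so no excess is read from the count. Values are log2, with intensity in brackets. Isca1 stood at 9.31 (635) in RAD001 9 d replicate 1, against 457 to 478 in the others. Nr2f1 stood at 7.35 (163) in RAD001 12 h replicate 5, against 59.1 to 75.6. Aqp5 was at the floor, 4.0, in RAD001 15 d replicate 6, where it is listed at 0, against 125 to 328. In transgenic placebo 12 h replicate 3, Aqp5 stood at 7.12 (139), against 29.3 to 34.9, and Th at 6.24 (75.8), against 20.3 to 25.2. Sprr1a stood at 8.56 (377) in transgenic placebo 48 h replicate 2, where the other 4 arrays are listed at 0.

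The remaining cases were probe sets of Papss2 not used for its fit. The dimmest of its 4 probe sets stood at 6.93 (122) in RAD001 15 d replicate 6, against 40.4 to 55.7, and at 5.56 (47.0) in transgenic placebo 48 h replicate 3, against 37.8 to 39.9. The probe set with zeros in 4 arrays was at 4.0, listed at 0, in RAD001 15 d replicate 6, wild type 12 h replicate 2 and wild type 48 h replicate 3.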

How the results depend on the processing

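Of the alternatives run for the 7 genes, 1298 values kept their call or stayed within 1 SD, 19 moved, 3 became called and 4 reversed. A genotype or RAD001 value was counted as reversed only if its sign changed and its main fit met the threshold, used there for sorting alone. All 4 so counted were Sprr1a with zeros as missing: genotype 0.11, genotype at 12 h 0.19, genotype at 48 h 0.43, and RAD001 at 48 h -0.10. Other sign changes lie outside that count, such as Sprr1a with RAD001 at 12 h and zeros as missing. Leaving out 1 array took Aqp5 with RAD001 from -0.12 to 0.76 at 12 h and from -0.40 to 0.47 at 15 d. Of the listed genes, 1152 values were unchanged in call, 161 lost it and 3 reversed, the last in genotype from 15 d alone: Sult1a1 0.050, Ackr1 -0.084 and Nr2f6 -0.016. From 15 d alone the genotype calls of Slc18a1, Spr, Aqp1, Mip, Ppl, Tgm3, Anxa1, Cxcl12, Ackr4, Aldh1a1, Aldh1a3, Rarb, Papss1, Bpnt1, Chst3 and Hscb were also lost. The causes were not tested.

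Counts of called features moved as follows. Genotype gave 3222 calls, and 1920 from 15 d alone, a count that was 287 without the second set of 15 d arrays, 460 with the set as a term and 1319 without arrays with many zeros. RAD001 at 12 h gave 142, and 78 with only the compared groups fitted, 233 without arrays with many zeros, 225 with zeros as missing, 314 without the second set of 15 d arrays and 227 with the set as a term. RAD001 at 48 h gave 341, and 613 without the second set and 547 with the set term. RAD001 at 15 d gave 556, and 192 with compared groups only, 335 without arrays with many zeros and 44 without the second set. RAD001 at 6 d and 9 d gave 83, and 14 from 6 d alone and 28 from 9 d alone. Wild type 15 d minus 48 h gave 175, and 331 with probe sets kept apart, 448 without the second set and 339 with the set term. Zeros as missing and both alternatives on the 15 d sets were chosen after seeing the data.

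Leaving out 1 array at a time gave 2911 to 3428 calls for genotype, 31 to 176 for RAD001 at 12 h (31 without placebo replicate 2), 147 to 399 at 48 h (147 without RAD001 replicate 5), 374 to 713 at 15 d and 33 to 110 at 6 d and 9 d (33 without RAD001 6 d replicate 3). It gave 997 to 1593 for wild type 48 h minus 12 h, 92 to 146 for 15 d minus 48 h, and 0 to 6 for RAD001 9 d minus 6 d.

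In the median, same-numbered arrays of different groups deviated together no more than others (r 0.006 over 22 pairs, against 0.005 over 117). At 15 d the numbers nevertheless went with the array sets. Replicates 1 and 2 of every group lay in the first set, and the higher-numbered transgenic arrays in the second. What the numbers stand for is not known. With the replicate block, genotype gave 3311 calls, RAD001 180 at 12 h, 465 at 48 h, 319 at 15 d and 5 at 6 d and 9 d. Th at 15 d was then 1.70, Papss2 0.08 and Aqp5 -0.82.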
